A study of Mus musculus with 24 samples.

Results

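Hsd3b5, Elovl3, Egfr, Cyp7b1, Cyp2d9 and Fabp5 are 6 genes listed here as liver genes that depend on the pulsed release of growth hormone. They were read here by every probe set whose single gene symbol in the platform table was 1 of these names, which gave 15 of the 45101 probe sets on the array. Each gene was represented by its brightest such probe set, and the 6 genes were among 13117 genes tested of 18193 with a probe set of their own. Liver RNA came from 24 male BALB/c mice, 6 in each of 4 groups, with 1 Affymetrix expression array per mouse. The mice were 6 weeks old on arrival and were given 1 week on standard chow. The STZ mice then received 185 mg/kg streptozotocin, a toxin of insulin-producing beta cells, into the abdomen, and were kept if their non-fasting glucose lay between 230 and 400 mg/dL 1 week later. From then on 6 of them ate the purified diet AIN93G alone for 14 days (called STZ here), 6 ate it with 0.1% quercetin and 6 with 0.5% quercetin, a plant flavonol. The control mice ate AIN93G and received no injection, vehicle included, so an effect of the injection and of streptozotocin cannot be told apart. The labels name no genetic change in any group.

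In male rodents the pituitary releases growth hormone in pulses with gaps between them, and in females more evenly. In hepatocytes each pulse acts through the growth hormone receptor to activate the transcription factor STAT5b, which turns on many genes with higher expression in males, while the repressor Bcl6 holds down many genes with higher expression in females. Low insulin is known to lower growth hormone receptor levels in liver. Growth hormone was not measured and no female mice were included, so the dependence that gives the set its name was not tested here.

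The tissue label fitted its markers: all 7 hepatocyte markers were measured, none passed the test in any comparison, and their summed intensity lay between 41844 and 45331 in STZ mice and between 41726 and 43795 in control mice. Mean intensity per array lay between 61.0 and 102.0 before normalization, and correlations between arrays between 0.969 and 0.987. In the 0.5% quercetin group, replicates 5 and 6 stood apart. Cdkn1a, a p53 target and cell cycle inhibitor gene, had intensities of 16.2 and 10.4 in these 2 livers and of 192 to 608 in the other 4 livers of the group, beside 323 to 465 in STZ livers and 12.9 to 50 in control livers. Results of the 0.5% group are therefore also given without them.

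Promoter sequence was on hand in the RefSeq table of GRCm38.p6 for 3 of the 6 genes. The 250 bases before the gene start are shown for Hsd3b5, which had the largest fall of the set, for Egfr, whose level differed most between STZ mice with and without 0.5% quercetin, and for Cyp2d9, whose level differed least between STZ and control mice. They lie at chr3:98645535-98645784 on the minus strand for Hsd3b5, chr11:16751953-16752202 on the plus strand for Egfr and chr15:82452127-82452376 on the plus strand for Cyp2d9. Capitals mark the single match found among the motifs searched.
Hsd3b5: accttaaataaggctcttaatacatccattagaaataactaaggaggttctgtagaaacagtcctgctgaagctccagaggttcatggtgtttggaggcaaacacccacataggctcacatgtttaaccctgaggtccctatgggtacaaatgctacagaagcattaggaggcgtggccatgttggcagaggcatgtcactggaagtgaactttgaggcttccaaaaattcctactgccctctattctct
Egfr: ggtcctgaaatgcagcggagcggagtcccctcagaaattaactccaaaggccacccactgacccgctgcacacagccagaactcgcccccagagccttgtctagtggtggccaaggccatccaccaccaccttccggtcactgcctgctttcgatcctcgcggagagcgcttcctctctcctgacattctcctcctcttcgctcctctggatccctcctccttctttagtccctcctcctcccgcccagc
Cyp2d9: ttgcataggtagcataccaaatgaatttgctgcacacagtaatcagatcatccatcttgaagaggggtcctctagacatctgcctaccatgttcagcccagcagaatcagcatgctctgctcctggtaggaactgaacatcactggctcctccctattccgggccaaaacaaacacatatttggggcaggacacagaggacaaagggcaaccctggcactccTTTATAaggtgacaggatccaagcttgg
The motifs were searched on both strands. The palindrome TTCNNNGAA, which STAT5 and Bcl6 bind, was in none of the 3 and in 7.02% of 32851 promoter windows of the same length. The clock E-box CACGTG (6.02% of windows), the D-box TTATGTAA (0.819%), the nuclear receptor half-site AGGTCA (14% of windows) and the HNF6 and Cux2 core ATCGAT (0.728%) were also in none of the 3. The TATA box letters TATAAA were in 12.4% of windows, counted on either strand, and in that of Cyp2d9. There the printed strand reads TTTATA, ending 23 bases before the start, so TATAAA itself lies on the strand opposite the gene. These counts describe letters in 250 bases, and sites farther away were not looked for.

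Against control mice, 3 of the 6 genes fell in STZ mice, 4 of 6 at 0.1% quercetin and 0 of 6 at 0.5% quercetin, and none rose. The genes that fell in STZ mice were Hsd3b5, Egfr and Cyp7b1, and those that fell at 0.1% quercetin were Hsd3b5, Elovl3, Cyp7b1 and Fabp5. A gene was called when its limma p, adjusted by the Benjamini-Hochberg method over all 13117 genes, was under 0.05. Over all genes tested, 1.69% were called lower in STZ mice, 2.64% at 0.1% quercetin and 0.0762% at 0.5% quercetin. The split of all called genes moved with the scaling. In STZ mice 222 were called lower and 266 higher, against 41 and 120 on the values as deposited and 278 and 170 with median scaling. At 0.1% quercetin 346 were called lower and 385 higher, against 90 and 127 as deposited and 539 and 222 with median scaling. At 0.5% quercetin 10 were called lower and 7 higher, against 6 and 2 as deposited and 649 and 37 with median scaling, where still 0 of the 6 genes were called. The median log2 change of the 6 genes was -1.30 in STZ mice, -1.59 at 0.1% quercetin and -0.58 at 0.5% quercetin, beside medians of -0.02, -0.01 and -0.01 over all genes. At 0.5% quercetin 0 of the 6 genes had an unadjusted limma p under 0.05, beside 1612 of all genes (12.3%). These 3 comparisons share the same 6 control livers. In whole liver, fewer cells of a type and less RNA per cell cannot be told apart. With the 3' minus 5' signal difference of the Gapdh control probe sets as a covariate, a measure used for RNA integrity, 0 of the 6 genes were called in STZ mice and 0 at 0.1% quercetin.

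**Figure D1:**
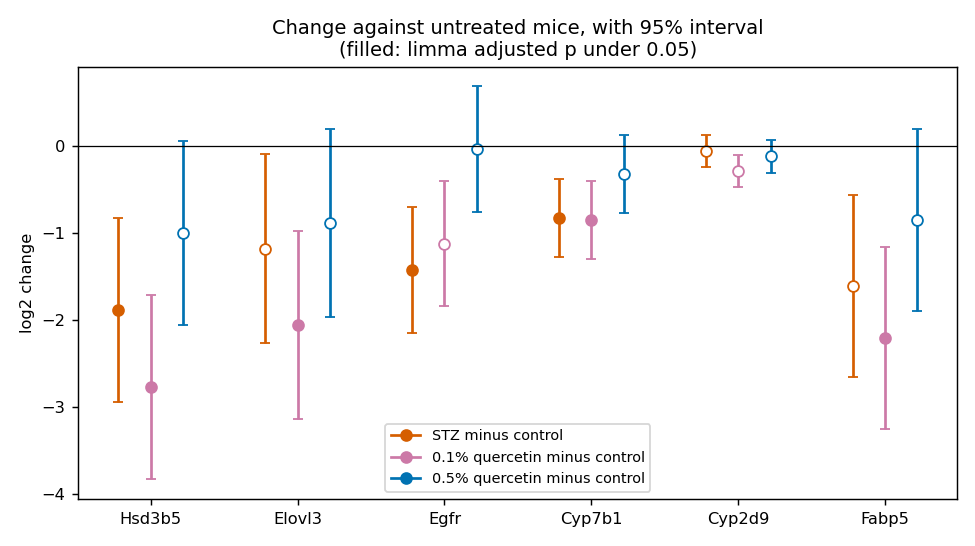
Log2 change against control mice (y axis) of each of the 6 genes (x axis) in STZ mice, at 0.1% and at 0.5% quercetin, with 95% intervals from limma; filled points passed an adjusted p of 0.05. Hsd3b5 at 0.1% quercetin lies lowest, at -2.77, and the intervals of all 6 genes at 0.5% quercetin include 0.

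Hsd3b5, Cyp7b1 and Cyp2d9 encode steroid-modifying enzymes of the hepatocyte. Hsd3b5 is a male-specific member of the 3-beta-hydroxysteroid dehydrogenase family that acts as a ketosteroid reductase. Its normalized intensity was 379, 658 and 1390 in STZ livers (lowest, median and highest of 6), 82.7, 385 and 1443 at 0.1% quercetin, and 619, 1254 and 2873 at 0.5% quercetin, against 2436, 2639 and 2976 in control livers. All 6 STZ livers and all 6 livers at 0.1% quercetin lay below every control liver, while at 0.5% quercetin 4 of 6 did. Such a separation downward was seen for 2.23% of all genes in STZ mice, 1.83% at 0.1% quercetin and 0.457% at 0.5% quercetin. Hsd3b5 fell 3.70-fold in STZ mice (log2 change -1.89, SE 0.52, limma adjusted p = 0.0369) and 6.82-fold at 0.1% quercetin (log2 change -2.77, SE 0.52, limma adjusted p = 0.00174). Ranked by size among all falls of the 13117 genes, Hsd3b5 stood at place 3 in STZ mice and at place 1 at 0.1% quercetin. At 0.5% quercetin its difference of -0.996 (SE 0.52) did not pass (limma adjusted p = 0.439), and the 95% interval ran from -2.05 to 0.06. The spread within the treated groups was wide, with an SD of 0.82 in STZ livers and 1.64 at 0.1% quercetin on the log2 scale, against 0.13 in control livers. The STZ call was lost on leaving out any of STZ replicates 2, 3, 5 and 6 or any single control array, with adjusted p up to 0.0994, while the call at 0.1% quercetin was kept without any single array.

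Cyp7b1 is the oxysterol 7-alpha-hydroxylase of the alternative pathway of bile acid synthesis. Its intensity was 735, 1153 and 1546 in STZ livers, 739, 1050 and 1873 at 0.1% quercetin, and 921, 1630 and 2077 at 0.5% quercetin, against 1644, 1948 and 2350 in control livers (lowest, median and highest). STZ and control livers did not overlap, and at 0.1% quercetin 1 liver, replicate 2, reached into the control range. Cyp7b1 fell 1.77-fold in STZ mice (log2 change -0.83, SE 0.22, limma adjusted p = 0.0316) and 1.80-fold at 0.1% quercetin (-0.85, SE 0.22, limma adjusted p = 0.0197). At 0.5% quercetin its difference was -0.32 (SE 0.22, limma adjusted p = 0.593), with 3 of 6 livers below all controls. The STZ call was lost without STZ replicate 3, 5 or 6 or control replicate 3, 5 or 6 (adjusted p up to 0.0980), and the 0.1% call without replicate 3, 5 or 6 of that group (up to 0.0664).

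Cyp2d9, a male-specific cytochrome P450 that hydroxylates testosterone, was not called in any comparison, though at 0.1% quercetin it passed under some other settings. Its intensity was 3070, 3340 and 3987 in STZ livers, 2345, 2908 and 3508 at 0.1% quercetin, and 2851, 3416 and 3709 at 0.5% quercetin, against 3477, 3532 and 3840 in control livers. In STZ mice 4 livers lay below every control and 2, replicates 4 and 5, above every control, so no single direction held. The log2 differences were -0.06 (SE 0.09, limma adjusted p = 0.816) in STZ mice, -0.29 (SE 0.09, limma adjusted p = 0.0631) at 0.1% quercetin and -0.12 (SE 0.09, limma adjusted p = 0.645) at 0.5% quercetin. At 0.1% quercetin Cyp2d9 passed with median scaling, a pseudocount of 64, the 60th percentile filter, a trended prior or array weights (limma adjusted p from 0.0267 to 0.0472), and without replicate 2 or 4 of that group (0.0419 and 0.0257). The 95% interval in STZ mice ran from -0.24 to 0.13, and the sign of that difference turned with the values as deposited and with the Gapdh covariate. The Cyp2d and Hsd3b families hold near-identical genes, and whether these probe sets also read family members was not tested.

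Elovl3 and Fabp5 act on fatty acids. Elovl3 is an endoplasmic reticulum elongase that makes very long saturated and monounsaturated fatty acids. Its intensity was 390, 980 and 1685 in STZ livers, 61.9, 686 and 1983 at 0.1% quercetin, and 508, 1355 and 2042 at 0.5% quercetin, against 1647, 2007 and 2741 in control livers. In each of the STZ and 0.1% quercetin groups 5 of 6 livers lay below every control, and at 0.5% quercetin 4 of 6 did. Elovl3 fell 4.15-fold at 0.1% quercetin (log2 change -2.05, SE 0.53, limma adjusted p = 0.0190), a call lost without replicate 5 or 6 of that group (adjusted p up to 0.0656). Those 2 livers had 177 and 61.9, far under the 552 to 1983 of the other 4. The differences of -1.18 (SE 0.53, limma adjusted p = 0.250) in STZ mice and -0.88 (SE 0.53, limma adjusted p = 0.521) at 0.5% quercetin did not pass.

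Fabp5 is a cytosolic carrier of fatty acids. Its intensity was 197, 332 and 929 in STZ livers, 116, 226 and 945 at 0.1% quercetin, and 250, 461 and 2332 at 0.5% quercetin, against 524, 1255 and 2319 in control livers. The groups overlapped in every comparison, with 4 of 6 STZ livers, 5 of 6 livers at 0.1% quercetin and 4 of 6 at 0.5% quercetin below all controls. Fabp5 fell 4.60-fold at 0.1% quercetin (log2 change -2.20, SE 0.51, limma adjusted p = 0.00945), a call kept without any single array. Its difference of -1.61 (SE 0.51) in STZ mice did not pass (limma adjusted p = 0.0777) and did so without STZ replicate 1, control replicate 1, 0.1% quercetin replicate 2 or 0.5% quercetin replicate 6 (adjusted p down to 0.0455). At 0.5% quercetin the difference was -0.85 (SE 0.51, limma adjusted p = 0.527).

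Egfr encodes the receptor for epidermal growth factor, abundant on hepatocytes. On its brightest probe set the intensity was 131, 170 and 472 in STZ livers, 121, 250 and 404 at 0.1% quercetin, and 230, 599 and 1196 at 0.5% quercetin, against 269, 578 and 1105 in control livers. In STZ mice 5 of 6 livers lay below every control, replicate 1 being the exception, and at 0.1% quercetin 4 of 6 did, while the 0.5% quercetin and control livers covered nearly the same range. Egfr fell 2.68-fold in STZ mice (log2 change -1.42, SE 0.35, limma adjusted p = 0.0202), a call lost without STZ replicate 2 or 6 or control replicate 3 or 5 (adjusted p up to 0.0583). Its difference at 0.1% quercetin was -1.12 (SE 0.35, limma adjusted p = 0.0599). That difference passed with median scaling, array weights, only the 2 groups in the fit or without 0.5% quercetin replicates 5 and 6 (limma adjusted p from 0.0264 to 0.0359), and without any 1 of 0.1% quercetin replicates 2 and 4, 0.5% quercetin replicates 2 and 6, STZ replicate 1 and control replicate 2 (0.0291 to 0.0455). At 0.5% quercetin the Egfr difference was -0.03 (SE 0.35, limma adjusted p = 0.983), with a 95% interval from -0.75 to 0.69.

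**Figure D2:**
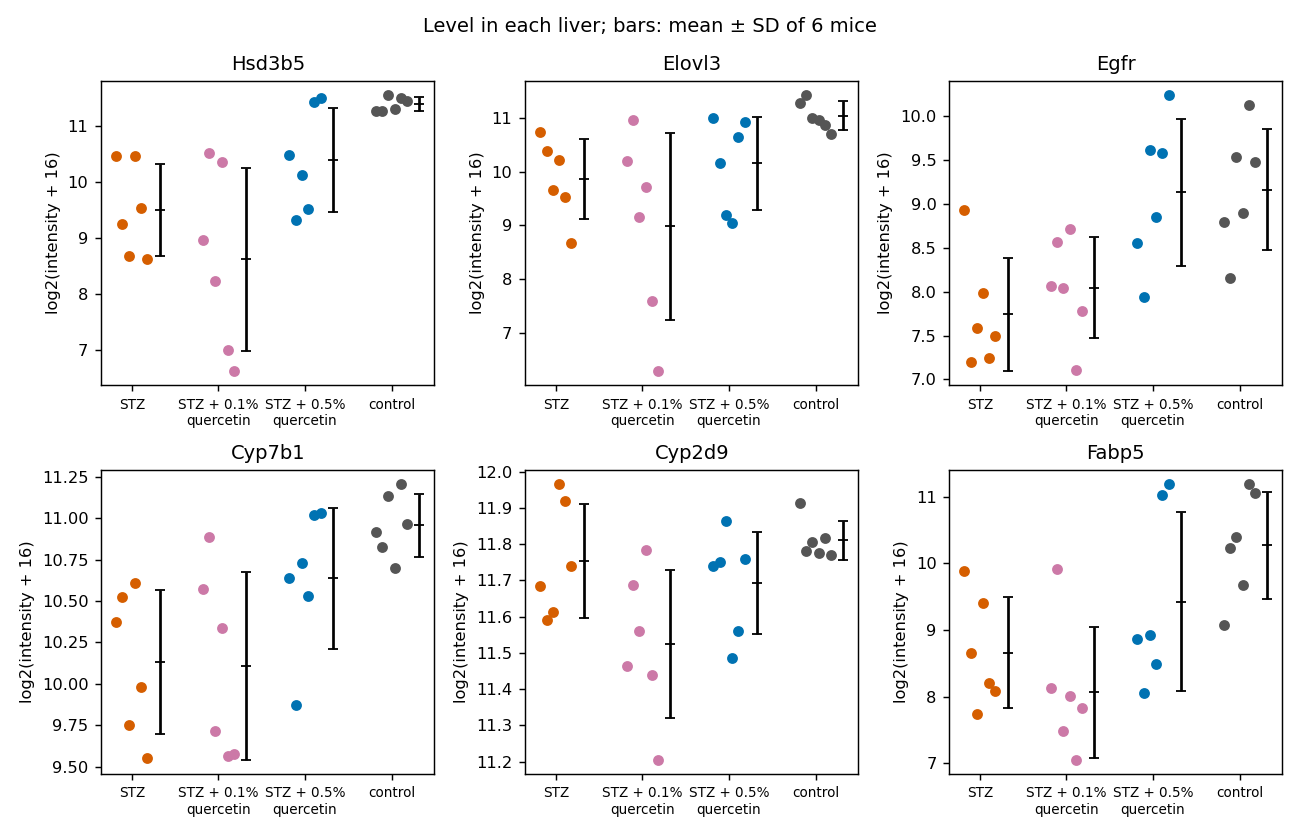
Level of each gene in each liver as log2 of the quantile-normalized intensity plus 16 (y axis) by group (x axis: STZ, 0.1% and 0.5% quercetin, control); points are mice and bars the mean ± SD of 6. The Hsd3b5 points of the control mice form a tight cluster above all 12 points of the STZ and 0.1% quercetin mice, and the Cyp2d9 panel spans less than 1 unit.

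By mean log2 level, Hsd3b5, Elovl3, Cyp7b1, Cyp2d9 and Fabp5 had the same lowest and highest group, 0.1% quercetin and control, while Egfr was lowest in STZ mice. Neighbouring groups in each order overlapped in their individual livers, and no pair of neighbours differed at an adjusted p of 0.05.

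The remaining probe sets of a gene differed in how closely they followed the brightest. In a fit over all 45037 probe sets without a filter on dim ones, 2 of the 15 probe sets were called lower in STZ mice, 1435888_at of Egfr (limma adjusted p = 0.0493) and 1421075_s_at of Cyp7b1 (log2 change -1.01, limma adjusted p = 0.0240). The probe sets that represented Hsd3b5 (1420531_at, limma adjusted p = 0.0858) and Cyp7b1 (1421074_at, 0.0699) did not pass in STZ mice in this fit. Both had passed in the fit over genes. The share of all probe sets called lower was 0.462%. At 0.1% quercetin 6 of 15 were called lower, beside 0.855% of all probe sets. These were 1 for Hsd3b5, 1 for Elovl3, 2 for Cyp7b1 and 2 for Fabp5. At 0.5% quercetin none was, beside 0.00666% of all. Both Fabp5 probe sets gave nearly the same differences in STZ mice, -1.61 and -1.56, and at 0.1% quercetin both gave -2.20.

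The 7 Egfr probe sets disagreed in size. In STZ mice against control, 1435888_at differed by -1.42, 1424932_at by -1.40, 1451530_at by -0.69 and 1460420_a_at by -0.50, the last without overlap between the groups. Of the others, 1454313_at differed by -0.18, 1432647_at by 0.06 and 1457563_at by 0.05. Both 1454313_at and 1432647_at were dim, with median intensities of 19.1 and 11.3 in control livers, against 578 for 1435888_at. The probe set 1457563_at lay under the filter on dim probe sets. The Cyp7b1 probe set 1446995_at, also under that filter, differed by -0.06. Probe set names ending in _s_at mark probes that the array's maker matched to more than a single transcript.

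**Figure D3:**
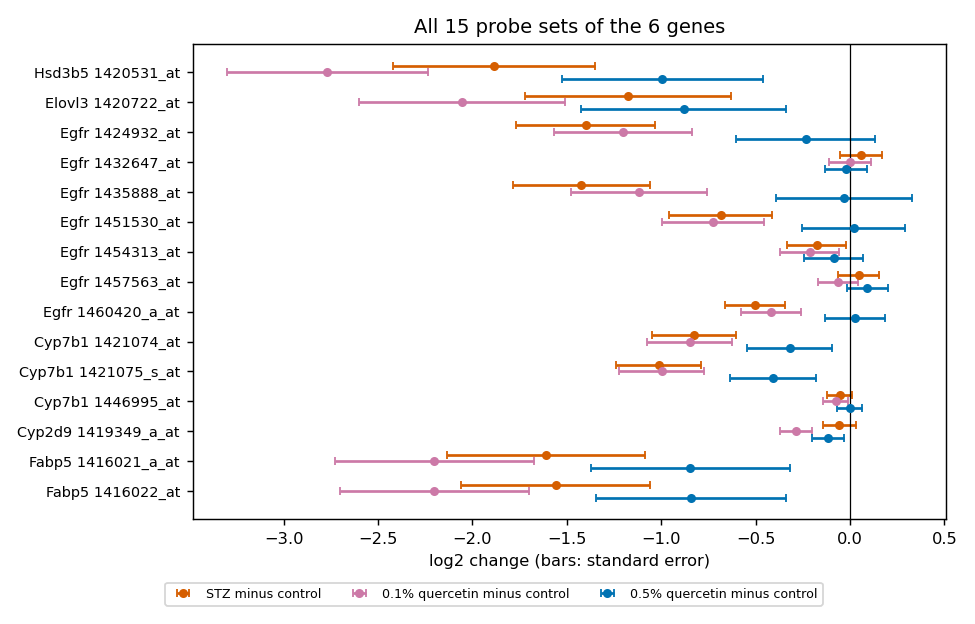
Log2 change against control mice (x axis) of all 15 probe sets of the 6 genes (y axis) in STZ mice, at 0.1% and at 0.5% quercetin; bars are standard errors. The Egfr probe sets range from -1.42 to 0.06 in STZ mice, and both Fabp5 probe sets lie together.

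Among the mice given streptozotocin, the comparisons of quercetin doses called none of the 6 genes and none of the 13117 genes. For 0.1% quercetin minus STZ, 1 gene of the set and 687 of all genes (5.24%) had an unadjusted p under 0.05. For 0.5% quercetin minus STZ these counts were 2 and 985 (7.51%), and for 0.5% minus 0.1% quercetin 5 and 1094 (8.34%). The median log2 differences of the 6 genes were -0.41, 0.63 and 1.13 in these 3 comparisons, beside 0.01, 0.00 and -0.00 over all genes.

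Egfr had the largest difference of the set between 0.5% quercetin and STZ mice, 1.39 on the log2 scale (SE 0.35, 95% interval 0.67 to 2.11, limma adjusted p = 0.365). Of the 6 livers at 0.5% quercetin, 3 lay above every STZ liver, replicates 3, 5 and 6 with intensities of 765, 752 and 1196. Replicates 5 and 6 are the livers with low Cdkn1a, so the size of this difference rests in part on them. In the same comparison Hsd3b5 differed by 0.89, Fabp5 by 0.76, Cyp7b1 by 0.51, Elovl3 by 0.29 and Cyp2d9 by -0.06. Between 0.5% and 0.1% quercetin Hsd3b5 differed by 1.77 (SE 0.52, 95% interval 0.71 to 2.83, limma adjusted p = 0.355), followed by Fabp5 with 1.36, Elovl3 with 1.17, Egfr with 1.09, Cyp7b1 with 0.53 and Cyp2d9 with 0.17. Between 0.1% quercetin and STZ the differences were -0.88 for Hsd3b5, -0.88 for Elovl3, -0.59 for Fabp5, -0.23 for Cyp2d9, -0.02 for Cyp7b1 and 0.30 for Egfr. The intervals of Hsd3b5 (-1.94 to 0.18) and Elovl3 (-1.96 to 0.20) include no difference and differences of over 1 log2 unit.

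The livers of a group differed in how many of the 6 genes were low. Replicates 1 to 6 had 3, 6, 6, 4, 5 and 6 of the 6 genes below every control liver in STZ mice, 6, 2, 6, 4, 6 and 6 at 0.1% quercetin, and 4, 6, 3, 5, 2 and 1 at 0.5% quercetin. Among STZ and 0.1% quercetin livers, STZ replicate 1 and 0.1% quercetin replicate 2 thus stood nearest the controls. Above every control liver lay 1 gene each in STZ replicates 4 and 5, 2 genes in 0.5% quercetin replicate 6 and none elsewhere. The share of all genes below or above every control is not given for single livers. At 0.5% quercetin the livers nearest the controls were replicates 5 and 6, those with low Cdkn1a. They had Hsd3b5 intensities of 2718 and 2873, against 619 to 1412 in the other 4 livers of the group. Their Fabp5 intensities were 2063 and 2332, against 250 to 471, and their Cyp7b1 intensities 2059 and 2077, against 921 to 1682. For Elovl3, Egfr and Cyp2d9 the ranges overlapped. Without these 2 livers 1 of the 6 genes was called at 0.5% quercetin against control, Fabp5 (log2 change -1.69, limma adjusted p = 0.0390). Over all genes the calls then numbered 432, 199 of them lower (1.52%) and 233 higher, in place of 17. The 2 livers were set aside after their Cdkn1a was seen to lie near that of control livers. Larger differences from control without them thus follow in part from that choice. In that fit Hsd3b5 differed by -1.53, Elovl3 by -1.19, Cyp7b1 by -0.51, Egfr by -0.42 and Cyp2d9 by -0.10. Their absence also left Hsd3b5 0.36 above STZ mice in place of 0.89, and Fabp5 at -0.08 in place of 0.76. Between 0.5% and 0.1% quercetin the differences without them were 1.24 for Hsd3b5 in place of 1.77, 0.51 for Fabp5 in place of 1.36, 0.86 for Elovl3 in place of 1.17, 0.69 for Egfr in place of 1.09, 0.34 for Cyp7b1 in place of 0.53 and 0.19 for Cyp2d9 in place of 0.17.

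**Figure D4:**
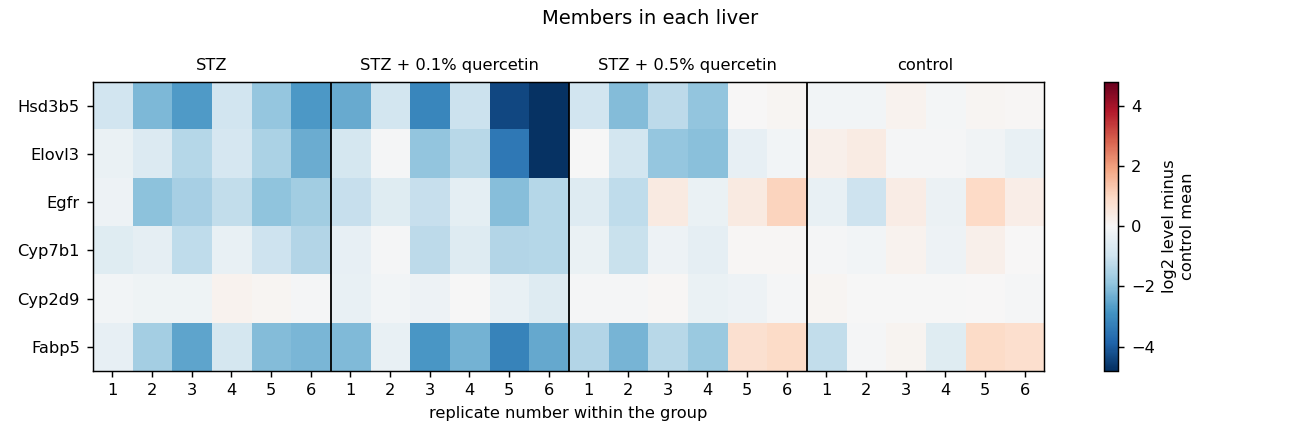
Level of each of the 6 genes (rows) in each of the 24 livers (columns, by group and replicate number) as log2 level minus the control mean; blue is lower and red higher. Replicates 5 and 6 at 0.5% quercetin are pale or red for Hsd3b5 and Fabp5, and replicates 5 and 6 at 0.1% quercetin are the darkest for Hsd3b5 and Elovl3.

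Some other genes with higher expression in male mouse liver also fell. Of 24 listed, 16 were tested. Of these, 6 fell in STZ mice, 7 at 0.1% quercetin and 0 at 0.5% quercetin, while none rose in these comparisons. The shares of all genes called lower were 1.69%, 2.64% and 0.0762%. The median log2 change of the list was -0.53, -0.50 and -0.18 in these groups. In STZ mice 14 of the 16 averaged lower than in control mice, while Mup3 averaged higher, at 12.28 against 11.91 on the log2 scale. In STZ mice the complement genes C6, C8a and C9 fell by 0.99, 0.70 and 0.50 on the log2 scale, the organic anion transporter gene Slco1a1 by 0.96, the cytochrome P450 gene Cyp2u1 by 0.79 and the complement regulator gene Susd4 by 0.55. Slco1a1 intensity was 382, 603 and 848 in STZ livers, against 1141, 1167 and 1348 in control livers, with no overlap. The list was drawn up with earlier results of these livers known, so its direction is not independent evidence.

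Of 24 genes with higher expression in female mouse liver, 14 were tested, and 5 rose in STZ mice, 6 at 0.1% quercetin and 0 at 0.5% quercetin, while none fell in these comparisons. The shares of all genes called higher were 2.03% in STZ mice, 2.94% at 0.1% quercetin and 0.0534% at 0.5% quercetin. This list too was drawn up with earlier results of these livers known, so its direction is not independent evidence. The median log2 change of the list was 0.85, 0.89 and 0.55. In STZ mice the cytochrome P450 genes Cyp2b9, Cyp4a14, Cyp17a1, Cyp3a44 and Cyp2b13 rose by 2.59, 2.27, 1.77, 1.20 and 0.92 on the log2 scale. Cyp2b9 intensity was 120, 316 and 398 in STZ livers and 14.5, 28.6 and 48.4 in control livers, with no overlap. Cyp4a14 is also a known target of the fatty acid sensor PPAR-alpha. Acot3, an acyl-CoA thioesterase gene, rose by 1.36 at 0.1% quercetin.

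On a list of 17 genes of growth hormone signalling, 16 were tested. In STZ mice 1 of these 16 fell, at 0.1% quercetin 2 and at 0.5% quercetin 0. Beside this, 1.69%, 2.64% and 0.0762% of all genes were called lower in these groups. The list medians were -0.09, -0.01 and -0.08. Igfals, which encodes the liver-made carrier subunit of circulating IGF complexes, fell by 0.47 in STZ mice (SE 0.11, limma adjusted p = 0.0130) and by 0.43 at 0.1% quercetin. Ghr, the growth hormone receptor gene, had intensities of 1500, 1681 and 1933 in STZ livers, against 2144, 2437 and 2509 in control livers. These groups did not overlap, yet the difference of -0.48 (SE 0.14) narrowly missed the threshold (limma adjusted p = 0.0504), and at 0.1% quercetin Ghr fell by 0.61 (SE 0.14, limma adjusted p = 0.00854).

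Stat5b, Bcl6, Igf1 and Socs2 did not pass in STZ mice. Stat5b, the transcription factor that carries the signal, differed by 0.04 (SE 0.12, limma adjusted p = 0.911). Bcl6 differed by -0.98 (SE 0.34, limma adjusted p = 0.113). Igf1, the main circulating product that growth hormone induces in liver, differed by -0.07 (SE 0.09, limma adjusted p = 0.761), and Socs2, a feedback inhibitor that STAT5b induces, by -0.21 with an SE of 0.40 (limma adjusted p = 0.852). RNA levels of these genes do not measure STAT5b activity, which depends on phosphorylation.

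**Figure D5:**
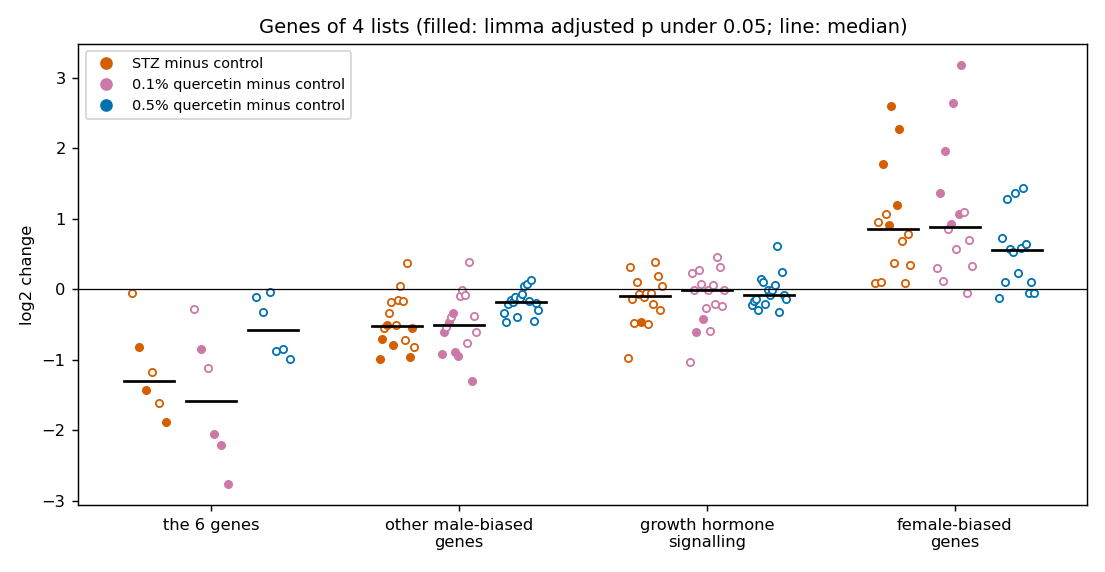
Log2 change against control mice (y axis) of the tested genes of 4 lists (x axis): the 6 genes, 16 other male-biased genes, 16 genes of growth hormone signalling and 14 female-biased genes, in STZ mice, at 0.1% and at 0.5% quercetin. Filled points passed a limma adjusted p of 0.05 and lines are medians, -1.30 for the 6 genes and 0.85 for the female-biased genes in STZ mice.

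Relatives of the 6 genes in their own families mostly did not pass in STZ mice. None of 9 tested genes of the ErbB receptors, their ligands and their regulators Errfi1 and Lrig1 passed, and none of 5 other fatty acid elongases. Among the other receptors Erbb3 was tested, while Erbb2 and Erbb4 were not. The ligand genes Egf, Hbegf and Ereg were dim, with median intensities of 7.56, 7.48 and 5.05 in control livers. Of 5 other fatty acid binding protein genes Fabp7 rose, by 0.47 (SE 0.11, limma adjusted p = 0.0176), at intensities of 21.0 to 32.9 in STZ livers and 9.78 to 26.1 in control livers. Of 7 other Cyp2d genes Cyp2d13 fell, by 0.53 (SE 0.12, limma adjusted p = 0.0111). Of 9 other genes of steroid and oxysterol metabolism Cyp27a1, the sterol 27-hydroxylase that acts upstream of Cyp7b1 in the alternative bile acid pathway, fell by 0.26 (SE 0.07, limma adjusted p = 0.0325). At 0.1% quercetin Fabp7, Cyp2d13 and Cyp27a1 passed in the same directions, and Hsd3b7, an enzyme of bile acid synthesis, fell by 0.47. At 0.5% quercetin none of these family lists had a called gene.

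Elovl3 expression in mouse liver is known to follow the circadian clock, and the labels give no time of death. Of 17 clock genes tested of 18 listed, none passed in STZ mice, and at 0.1% quercetin Usp2 and Ciart rose by 1.39 and 0.90 while Nfil3 fell by 0.90. The livers numbered 1 to 3 and 4 to 6 did not overlap for 9 of the 17 clock genes in STZ mice, 3 at 0.1% quercetin, 0 at 0.5% quercetin and 6 in control mice. Over all genes such a separation was seen for 12.7% in STZ mice, 11% at 0.1% quercetin, 11.1% at 0.5% quercetin and 13.3% in control mice. Arntl was lower in numbers 4 to 6 than in numbers 1 to 3 by 0.99 log2 units in STZ mice and by 1.25 at 0.1% quercetin, without overlap in either, and by 0.09 at 0.5% quercetin and 0.65 in control mice. Elovl3 was lower in numbers 4 to 6 by 0.79 in STZ mice, 2.24 at 0.1% quercetin and 0.39 in control mice, the last without overlap, and higher by 0.08 at 0.5% quercetin. Of the other 5 genes Cyp2d9 alone separated the numbers, higher by 0.25 in numbers 4 to 6 of the STZ mice. The labels do not say that the numbers mark a batch, and the part of the clock in the Elovl3 result was not tested.

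In STZ mice 5 of the 6 genes were lower than in control mice within both sets of numbers, at unequal size. Between STZ and control mice Hsd3b5 differed by -1.90 within numbers 1 to 3 and by -1.87 within numbers 4 to 6. Cyp7b1 differed by -0.74 and -0.91, Elovl3 by -0.98 and -1.37, Egfr by -0.92 and -1.93, Fabp5 by -1.14 and -2.08, and Cyp2d9 by -0.20 and 0.09. Between 0.1% quercetin and control mice Hsd3b5 differed by -2.12 and -3.42, and Elovl3 by -1.13 and -2.98. With the 2 sets of numbers as a term in the fit, the same 3 and 4 genes passed in STZ mice and at 0.1% quercetin.

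Some markers of other cells also changed. For comparison, 2.03% of all genes were called higher and 1.69% lower in STZ mice. Of 8 macrophage markers, Cd5l, C1qa and C1qb rose in STZ mice. Their list summed to 1374 to 1750 in STZ livers, 1450 to 1739 at 0.1% quercetin and 1038 to 1634 at 0.5% quercetin, against 1035 to 1324 in control livers. Of 4 B and plasma cell markers Ighm and Jchain fell, and the list summed to 41.5 to 94.8 in STZ livers and 159 to 312 in control livers. Lyve1, 1 of 5 endothelial markers, and Dcn, 1 of 6 stellate cell markers, rose in STZ mice. In the same lists 2 of 5 and 2 of 6 markers averaged lower in STZ than in control mice. The endothelial list summed to 184 to 227 in STZ livers and 178 to 208 in control livers. The stellate list summed to 775 to 1006 in STZ livers and 767 to 917 in control livers. Of 5 exocrine pancreas markers only Cela1 was above the filter, and it fell by 1.38. None of the measured markers of bile duct (3 of 5 listed), T cells (1 of 4), adipocytes (1 of 5) or keratinocytes (2 of 3) passed in STZ mice. The part of these cells in the results on the 6 genes was not tested.

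The 3' minus 5' difference of the Gapdh control probe sets, in which degraded RNA is known to give higher values, was lower in STZ mice and at 0.1% quercetin than in control mice. The Gapdh 3' minus 5' log2 difference averaged -0.34 ± 0.10 in STZ livers, -0.32 ± 0.15 at 0.1% quercetin and -0.21 ± 0.17 at 0.5% quercetin, against -0.04 ± 0.17 in control livers (SD, n = 6 each). By a two-sided exact permutation test, adjusted over the 3 comparisons by the Benjamini-Hochberg method, p was 0.0130 for STZ mice, 0.0195 at 0.1% quercetin and 0.108 at 0.5% quercetin (unadjusted 0.00433, 0.0130 and 0.108). With it as a covariate the STZ differences were -0.60 for Hsd3b5, -0.78 for Egfr and -0.28 for Cyp7b1, and those at 0.1% quercetin were -1.58 for Hsd3b5, -1.27 for Elovl3, -0.35 for Cyp7b1 and -1.01 for Fabp5, none past the threshold. Over all genes that fit called 6 in STZ mice, in place of 488, and 4 at 0.1% quercetin, in place of 731. Group and the Gapdh difference moved together, and their parts in these differences cannot be told apart.

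The level of Hsd3b5 over the 24 livers was most like that of Slco1a1, with a Pearson r of 0.976 (0.950 after the group means were removed), Mup10, a major urinary protein gene (0.958 and 0.962), and Hao1, a peroxisomal hydroxyacid oxidase gene (0.939 and 0.861). The closest genes were C6, C8b and Mup10 for Cyp7b1 (r = 0.944, 0.913 and 0.894), Agpat2, Aqp8 and Sc5d for Elovl3 (0.889, 0.887 and 0.885), Nudt7, Keg1 and Serpina4-ps1 for Egfr (0.902, 0.862 and 0.850), Hao1, Serpina12 and Hes6 for Fabp5 (0.939, 0.895 and 0.890), and Cd164, Car3 and Lrrc8d for Cyp2d9 (0.846, 0.792 and 0.769). Among the 6 genes themselves, r ran from 0.302 for Egfr with Cyp2d9 to 0.895 for Hsd3b5 with Cyp7b1. These are descriptions over 24 arrays that share groups and normalization, and they were picked as the highest of 13117 genes.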

How the data were processed

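Total RNA from 24 livers was labelled as biotin cRNA, per the labels' protocols. The authors deposited linear probe set intensities for 45101 probe sets, and their summary algorithm and scaling are not given in the sources used here. The intensities were quantile normalized across arrays and converted to log2(value + 16), which understates folds of dim genes. Gene symbols came from the platform table, and promoters from RefSeq (GRCm38.p6). A gene was tested if the mean of its representative probe set exceeded the 40th percentile over all probe sets. Groups followed the sample labels. A single limma model (limma 3.58.1, R 4.3.3) with 4 group means gave two-sided p-values, adjusted by the Benjamini-Hochberg method across 13117 genes (threshold 0.05). This procedure was tested on simulated data with independent normal noise and, for each gene, the same SD in all 4 groups. That test therefore says nothing about genes whose spread differs between groups, such as Hsd3b5, or about correlated genes. The number of arrays limits the precision. Mice shared cages of 3, and no mouse is tied to a cage, so mice were treated as independent.

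The members and the gene and marker lists were chosen with earlier results of these data known. Named genes were the members, for each member the 3 genes of highest r, up to 6 called genes of each list, and Ghr, Stat5b, Bcl6, Igf1 and Socs2. Cdkn1a and the genes named only at 0.1% quercetin were chosen after their values were seen. The alternatives were other scalings, pseudocounts, filters, probe set rules, priors, array weights, a replicate block, numbers 1 to 3 against 4 to 6 as a term, the Gapdh 3' minus 5' difference as a covariate and left-out arrays.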

Additional observations from a re-analysis of the deposited data

Results flagged for a closer look

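Over the 6 genes and 4 groups, 24 sets of 6 livers were searched for a liver far from the rest. Only Cyp2d9 in control mice had one. Replicate 1 had a log2 level of 11.91, against 11.77 to 11.82 in the other control livers, and its gap to the nearest of them was 0.678 of the group's range, above the 95% critical value of Dixon's test. Chance gives such a liver in about 1 of 20 sets.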

How the results depend on the processing

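The count of called genes in STZ mice against control, 3, was 1 with a pseudocount of 1, 1 with a trended prior, 5 with only the 2 groups in the fit, 4 with median scaling, array weights or 0.5% quercetin replicates 5 and 6 left out, and 0 with the Gapdh covariate. With the replicate number as a block it was 1. The numbers do not pair the samples, since same-numbered livers correlated between -0.14 and 0.32 after removal of group means and 6 of 24 arrays were closest to their own number. At 0.1% quercetin the count of 4 was 0 with the Gapdh covariate, 5 with a pseudocount of 64, the 60th percentile filter, a trended prior, only the 2 groups in the fit or 0.5% quercetin replicates 5 and 6 left out, and 6 with median scaling or array weights. At 0.5% quercetin the count of 0 was 1 without replicates 5 and 6. The count of 2 probe sets in STZ mice was 1 on the values as deposited, 0 with a pseudocount of 1 and 0 with the block. Leaving out single arrays gave 0 to 4 genes in STZ mice, 2 to 6 at 0.1% quercetin and 0 to 0 at 0.5% quercetin and in the comparisons of doses. In STZ mice the count was 0 without STZ replicate 6, control replicate 3 or control replicate 5, and 1 without STZ replicate 2, 3 or 5 or control replicate 6. At 0.1% quercetin it was 2 without replicate 5 or 6 of that group.

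Signs turned for small differences. Cyp2d9 in STZ mice was 0.000821 as deposited and 0.0175 with the Gapdh covariate, and between 0.5% quercetin and STZ it was 0.0554 with trimmed mean scaling. Egfr at 0.5% quercetin was 0.33 with the Gapdh covariate and -0.25 to 0.21 with single arrays left out. Between 0.5% quercetin and STZ, Elovl3 was -0.0736 with the Gapdh covariate and -0.0170 without replicates 5 and 6, where Fabp5 was -0.0780. Cyp7b1 between 0.1% quercetin and STZ was -0.180 to 0.0849 with single arrays left out. Of 540 values of single genes under the other settings, 504 kept direction and side of the threshold, 14 lost the call, 15 gained one and 7 turned. Most of these values belong to results that were not called, which could lose no call. In STZ mice Hsd3b5 lost its call under 5 of 15 settings, not all of them named above, Cyp7b1 under 4 and Egfr under 1. At 0.1% quercetin Hsd3b5, Elovl3, Cyp7b1 and Fabp5 each lost it under 1. The causes were not tested.

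Over all genes, 488 were called in STZ mice (6 to 787 under other settings, 246 to 548 with single arrays left out), 731 at 0.1% quercetin (4 to 906, and 440 to 816) and 17 at 0.5% quercetin (0 to 686, and 1 to 150).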
